A study of Homo sapiens with 17 samples.

Results

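The genes described here are 9 writers, erasers and readers of the histone marks of active enhancers: the H3K4 methyltransferases KMT2A, KMT2B, KMT2C and KMT2D, the acetyltransferases EP300, CREBBP and KAT6A, the demethylase KDM6A and the BET reader BRD2. They were chosen by name, as the first symbol in the annotation of each gene, and all 9 were found among the 26457 genes listed. All 9 passed the filter on low values, under which 14800 genes were tested. Of the BET family only BRD2 is in the set.

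The mRNA-seq experiment used SW480, a human colon cancer cell line with a mutant p53 (mutp53), and asked how the transcriptome depends on mutp53 before and during prolonged exposure to TNF-α. The control cells expressed a short hairpin against LacZ (shLacZ) and the mutp53-depleted cells a hairpin against p53 (shp53). Both lines carried the hairpin stably, were kept in puromycin at 1.5 µg/ml and were induced with doxycycline at 1 µg/ml. Cells of each line were taken untreated (0 h) or 16 h into exposure to 12.5 ng/ml TNF-α, as 2 biological replicates, A and B, for each of the 4 groups. The line and the hairpin cannot be told apart, because the labels name 1 stable line for each hairpin.

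Enhancers are marked by monomethylation of H3K4, which KMT2C and KMT2D place, and in their active state by acetylation of H3K27, which EP300 and CREBBP place. KDM6A belongs to the complexes of KMT2C and KMT2D and removes methyl groups from H3K27, the mark of Polycomb repression that occupies the same residue as the acetyl group. BET proteins such as BRD2 bind acetylated histones through their bromodomains and help RNA polymerase II to elongate, and NF-κB, the factor that TNF-α activates, uses EP300 and CREBBP as coactivators.

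Each library had 6108488 to 13809578 reads on genes, and replicate A was the larger in each group. The values given are normalized reads, which are reads on the exons of a gene times 1 factor per library, and 1 read was worth between 0.67 and 1.51 normalized reads. Reads on genes made up 74.5% to 76.8% of the library totals in control cells and 78.6% to 79.5% in mutp53-depleted cells, and the part of this difference in the results was not tested. All 5 epithelial markers examined (KRT8, KRT18, KRT19, EPCAM and CDH1) were detected in every library. Of the 3 colon markers, CDX2 lay between 462 and 1082 normalized reads, VIL1 was at 545 and 480 in untreated control cells and at 8.71 and 12.3 after depletion, and CDX1 had 0 reads. Among markers of other cell types PTPRC (leukocytes) and DCN (fibroblasts) had 0 reads, CD14 lay between 4.94 and 34.8 and COL1A1 between 24.2 and 106. The summed epithelial markers lay between 64731 and 69182 normalized reads in untreated control cells. They were lowest after depletion with 16 h of TNF-α, at 42212 to 43319.7. KRT19 went the other way and was highest there, at 9957 and 10221 against 7394 and 7114 in untreated control cells. CDH1 went from 485 and 467 to 87 and 78 with TNF-α in control cells. EPCAM went from 5976 and 5687 to 2404 and 2367 on depletion at 0 h. The part of these markers in the changes below was not tested. The 4 fibroblast markers summed to 38.5 to 39.4 at 0 h in the control line and to 158 to 176 in the depleted line. PDGFRB was at 69.7 and 69.9 in the depleted line at 0 h against 4.35 and 6.06 in the control line. By 16 h PDGFRB was at 7.55 and 8.64 against 4.83 and 4.27. VWF (endothelium) was at 28.8 and 21.9 in the depleted line at 0 h against 6.53 and 6.06. Of the other endothelial markers PECAM1 reached at most 1.23 and CDH5 5.8. The part of these markers was likewise not tested. In bulk RNA, fewer cells of a kind and less RNA per cell cannot be told apart.

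All 9 genes were detected in every library. The smallest number of reads behind a value was 238, for KDM6A, which corresponds to a counting error of 6.48% (coefficient of variation, counting error only). The gap between replicates A and B was 1.23% to 15.7% of the smaller value, with a median of 7.45%, over the 36 pairs that the 9 genes and 4 groups give. Set per kilobase of exon, which allows levels of different genes to be compared, BRD2 was the highest at 714 normalized reads per kb as a mean over the 8 libraries. KMT2B followed at 211, EP300 at 196, KMT2D at 165, KMT2A at 164, CREBBP at 136 and KAT6A at 116. KDM6A at 68.1 and KMT2C at 65.5 were lowest, below the median of 78.2 over the genes tested. The range of the libraries separated BRD2 from KMT2B and KAT6A from KDM6A, whereas every other pair of neighbours in this order overlapped. The H3K4me1 writers thus did not sit together, since KMT2D was among the middle genes and KMT2C at the end of the order.

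**Figure D1:**
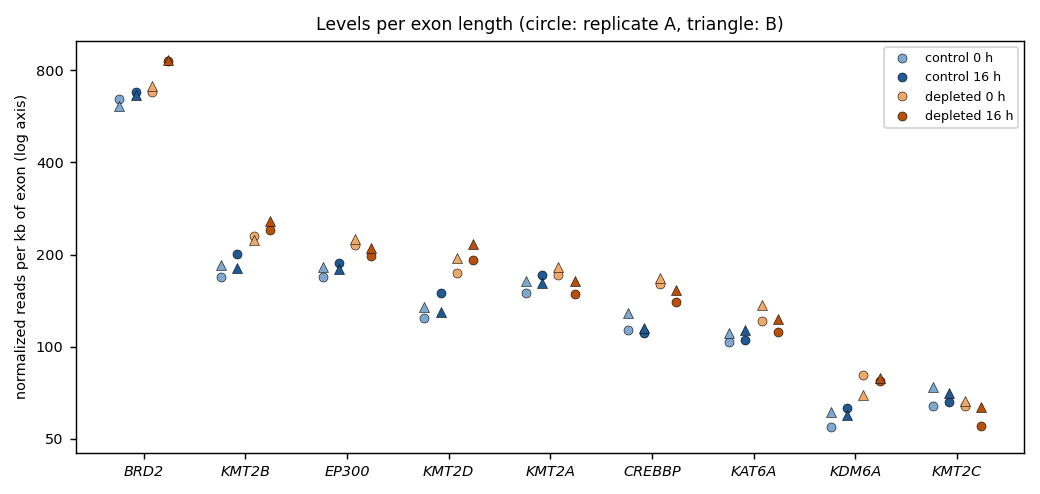
Normalized reads per kb of exon (log axis) for each of the 9 genes in the 8 libraries, with circles for replicate A, triangles for replicate B and colours for the 4 groups. BRD2 lay between 611 and 867 and stood apart from the next gene, KMT2B, which lay between 169 and 258.

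Depletion of mutp53 before TNF-α (0 h) was accompanied by higher levels of 6 of the 9 genes: KMT2B, KMT2D, KAT6A, EP300, CREBBP and KDM6A. None of the 9 was called lower, whereas 25.2% of all genes were. The calls were made with limma at a Benjamini-Hochberg adjusted p under 0.05 over all genes tested, a rule that called 52.5% of all genes at 0 h in either direction and 27.3% as higher. None of the 9 passed with a fold change of at least 2, against 15.4% of all genes, so each change was under 2-fold. The median log2 fold change was 0.33 for the 9 genes and 0.03 for all genes tested. The 9 genes are long, with 4.24 to 19.4 kb of exon against a median of 2.89 kb, and among the 764 genes with at least 8 kb of exon 39.3% were called higher at 0 h, with a median of 0.17. In 8 of the 9 genes both mutp53-depleted libraries at 0 h were above both control libraries, and this was so for 40.2% of all genes tested. At an unadjusted p under 0.05 the same 8 passed, beside 57.6% of all genes.

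After 16 h of TNF-α, 5 of the 9 genes were higher in mutp53-depleted than in control cells: KMT2B, KMT2D, CREBBP, KDM6A and BRD2. Here limma called 51.3% of all genes in either direction and 24.9% as higher, and 31.3% of the genes with at least 8 kb of exon as higher. Again none of the 9 was called lower, as 26.5% of all genes were, or passed the 2-fold threshold, as 15.2% did. An unadjusted p under 0.05 was reached by 6 of the 9, KMT2C as the lower one among them, and by 56.5% of all genes. Both mutp53-depleted libraries lay above both controls for 6 of the 9 genes, the 5 called and EP300, and for 36.9% of all genes. The median log2 fold change was 0.35 for the 9 genes and −0.01 for all genes. The 2 comparisons set different libraries side by side, although they share the lines and the estimate of the spread. KMT2B, KMT2D, CREBBP and KDM6A were called higher in both, as were 20.0% of all genes. In 5 of the 9 genes, these 4 and EP300, every mutp53-depleted library lay above every control library, and this was so for 22.4% of all genes.

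**Figure D2:**
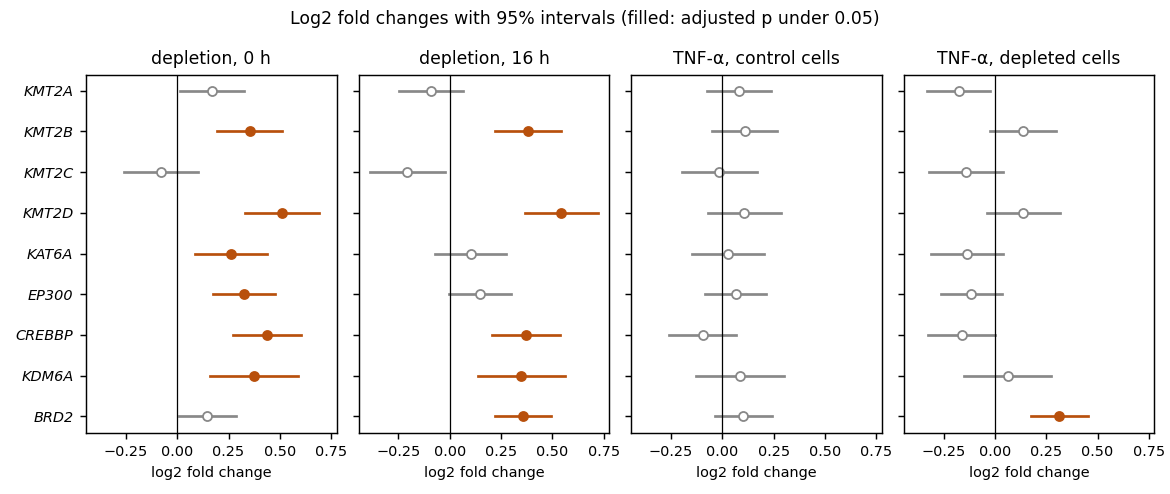
Log2 fold changes of the 9 genes with their 95% intervals from limma, for mutp53 depletion at both times and for TNF-α in either line; filled orange points passed an adjusted p under 0.05. The 6 filled points at 0 h lie between 0.26 and 0.51, and BRD2 at 0.31 is the only filled point for TNF-α.

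The sequences upstream of the 4 genes called higher at both times are shown because these genes passed in both comparisons. These use separate libraries but share the lines and the estimate of the spread. Each is the stretch of 250 bases before the most upstream start that RefSeq gives for the gene on GRCh38.p14, read 5′ to 3′ on the strand of the gene. These positions are in another build than the hg19 positions of the deposited table, given below with each gene. Capitals mark the GC box, GGGCGG on either strand, to which SP-family factors bind. The search also covered the ETS core CCGGAA and the κB motif by name on both strands, and neither was found in these 4 windows. The windows are KMT2D at chr12:49060795-49061044 (minus strand), KMT2B at chr19:35717753-35718002 (plus strand), CREBBP at chr16:3880714-3880963 (minus strand) and KDM6A at chrX:44872938-44873187 (plus strand). The KMT2B window overlaps by 30 bases an exon that GENCODE, which places a start of KMT2B further upstream than RefSeq, gives for this gene, and the other 3 overlap no GENCODE exon.
KMT2D: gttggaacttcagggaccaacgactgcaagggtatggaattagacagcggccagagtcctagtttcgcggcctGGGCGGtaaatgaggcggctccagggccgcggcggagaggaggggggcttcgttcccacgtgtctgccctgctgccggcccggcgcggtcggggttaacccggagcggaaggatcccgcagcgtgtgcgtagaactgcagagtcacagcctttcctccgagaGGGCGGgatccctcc
KMT2B: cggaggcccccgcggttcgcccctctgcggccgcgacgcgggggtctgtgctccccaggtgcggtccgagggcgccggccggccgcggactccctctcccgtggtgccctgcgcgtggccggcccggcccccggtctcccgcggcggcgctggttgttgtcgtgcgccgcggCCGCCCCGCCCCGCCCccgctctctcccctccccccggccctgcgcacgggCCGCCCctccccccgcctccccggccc
CREBBP: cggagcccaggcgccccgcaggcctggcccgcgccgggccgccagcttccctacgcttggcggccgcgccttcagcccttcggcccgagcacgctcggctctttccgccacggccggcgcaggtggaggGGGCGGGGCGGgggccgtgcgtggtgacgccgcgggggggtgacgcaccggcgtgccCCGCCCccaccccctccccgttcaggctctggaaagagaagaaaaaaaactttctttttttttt
KDM6A: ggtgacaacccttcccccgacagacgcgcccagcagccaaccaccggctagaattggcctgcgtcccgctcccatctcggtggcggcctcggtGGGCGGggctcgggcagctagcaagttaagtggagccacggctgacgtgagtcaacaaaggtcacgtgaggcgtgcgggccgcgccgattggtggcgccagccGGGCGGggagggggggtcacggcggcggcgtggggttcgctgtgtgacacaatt
The KMT2D and KDM6A windows each hold 2 GC boxes, the CREBBP window 3 and the KMT2B window 4, counting overlapping matches. A GC box was present in 42.6% of the 35114 promoter windows of the same length, an ETS core in 14.5% and a κB motif in 5.21%. The 4 windows hold 23, 40, 31 and 27 CpG dinucleotides for KMT2D, KMT2B, CREBBP and KDM6A, against a median of 11 over all windows, and 65.6%, 84.4%, 72.4% and 69.2% of their bases are G or C, against a median of 58.0%. Windows of the genes not called at both times were also rich in CpG, with 48 for KMT2C, 35 for EP300, 31 for KMT2A and 27 for BRD2, and KAT6A was not in the table. They held 15 GC boxes for KMT2C, 3 for KMT2A, 1 for BRD2 and 0 for EP300, and 1 ETS core each for KMT2A and BRD2. No κB motif was found in any of the 8 windows. These matches describe the letters in the windows and show neither binding nor its absence.

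KMT2D (chromosome 12, 49412758 to 49449107 on hg19, minus strand, NM_003482), the main H3K4 monomethyltransferase of enhancers in many cell types, showed the largest difference of the 9 at both times. Untreated control cells had 2407 (A) and 2615 (B) normalized reads, and untreated mutp53-depleted cells 3379 and 3779. With TNF-α the values were 2905 and 2514 in the control line and 3708 and 4179 in the depleted line. All 4 mutp53-depleted libraries were above all 4 control libraries. In the depleted line KMT2D was higher 1.42-fold at 0 h (95% interval 1.26 to 1.61, limma adjusted p = 5.9e-05) and 1.46-fold at 16 h (1.29 to 1.65, limma adjusted p = 3.1e-05). The 50 tested genes nearest to KMT2D on chromosome 12 also tended to be higher, with 28 of the 50 called higher at 0 h and 26 at 16 h, and medians of 0.48 and 0.36 on the log2 scale. For the fits with neighbours subtracted, a neighbour median was taken in each mutp53-depleted library, from differences to the control mean. It was subtracted from that library alone, so these results can depart from the medians just given. With the median of the neighbours subtracted in this way, the log2 difference of KMT2D was 0.05 at 0 h and 0.17 at 16 h. Neither passed (limma adjusted p = 0.7 and 0.13).

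KMT2C (chromosome 7, 151832010 to 152133090 on hg19, minus strand, NM_170606), the paralog of KMT2D, did not follow it. Its normalized reads at 0 h were 1078 and 1244 in the control line and 1078 and 1115 in the depleted line. By 16 h they were 1112 and 1184 against 926 and 1066. The groups overlapped at 0 h, and at 16 h both mutp53-depleted libraries were below both controls, as for 37.6% of all genes. The log2 difference was −0.08 (95% interval −0.26 to 0.10, limma adjusted p = 0.46) at 0 h and −0.21 (−0.39 to −0.03, limma adjusted p = 0.054) at 16 h. The second value was close to the threshold, and both edgeR tests called it lower (edgeR quasi-likelihood adjusted p = 0.04, exact test adjusted p = 0.041), while DESeq2 did not (adjusted p = 0.12). In limma it did not pass with median-ratio scaling (adjusted p = 0.059), no filter (0.079), a mean of at least 10 (0.051) or a pseudocount of 0.1 (0.066). Nor did it without replicate A of the control cells at 16 h (log2 difference −0.25) or either mutp53-depleted library of 0 h (−0.21). A pseudocount of 5 let it pass (limma adjusted p = 0.048). In limma it passed with TMM scaling (adjusted p = 0.046), with thinned reads (adjusted p = 0.043), with the length trend removed (adjusted p = 0.016), without either control library of 0 h (adjusted p = 0.042) and without replicate B of the mutp53-depleted cells at 16 h (log2 difference −0.31, adjusted p = 0.023). It did not pass without replicate A of the mutp53-depleted cells at 16 h (−0.11, limma adjusted p = 0.43) or replicate B of the control cells at 16 h (−0.16, limma adjusted p = 0.21). At 0 h it passed as lower with the length trend removed (log2 difference −0.23, limma adjusted p = 0.015).

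The neighbours of KMT2C on chromosome 7 had lower log2 fold changes on depletion than KMT2C itself. Of its 50 nearest tested genes, 31 were called lower at 0 h and 36 at 16 h, and their medians were −0.71 and −0.86 on the log2 scale. These medians leave 0.63 at 0 h and 0.65 at 16 h for KMT2C. With medians taken per library and subtracted, as for KMT2D, the log2 difference of KMT2C became 0.66 at 0 h and 0.56 at 16 h. Both were past the threshold (limma adjusted p = 3.1e-05 and 0.00019). KMT2C thus stayed closer to its control level than the middle of its neighbours. Parts of KMT2C are duplicated elsewhere in the genome, and how reads that match several places were counted is not given in the sources used here, which makes its level less certain.

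Within each library KMT2D was above KMT2C per kilobase. In control cells the ratio was 1.94 and 1.82 at 0 h and 2.27 and 1.84 at 16 h. After depletion it was 2.72 and 2.94 at 0 h and 3.47 and 3.4 at 16 h. All 4 ratios after depletion were above all 4 ratios in control cells. The ratio was not tested.

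KMT2B (chromosome 19, 36208921 to 36229781 on hg19, plus strand, NM_014727) is a methyltransferase that works mainly at CpG-rich promoters. At 0 h the control line had 1425 and 1565 normalized reads and the depleted line 1936 and 1877. After TNF-α the control line had 1697 and 1528 and the depleted line 2025 and 2172. As for KMT2D, every mutp53-depleted library was above every control library. KMT2B rose 1.28-fold at 0 h (95% interval 1.14 to 1.43, limma adjusted p = 0.00074) and 1.30-fold at 16 h (1.17 to 1.46, limma adjusted p = 0.00037). With the length trend removed the log2 difference at 0 h went from 0.35 to 0.23 (limma adjusted p = 0.015). Its 50 neighbours on chromosome 19 had medians of 0.30 and 0.27 on the log2 scale, which leave 0.05 and 0.11 for KMT2B. With medians taken per library and subtracted, KMT2B differed by 0.005 and 0.12, with neither past the threshold (limma adjusted p = 0.97 and 0.27).

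KMT2A (chromosome 11, 118307205 to 118397539 on hg19, plus strand, NM_001197104), the closest paralog of KMT2B and the gene rearranged in many acute leukaemias, was not called in any comparison. Control cells had 2481 and 2722 normalized reads at 0 h and 2829.6 and 2669 at 16 h. Values after depletion were 2834 and 3009.7 at 0 h and 2466 and 2705 at 16 h. At 0 h the mutp53-depleted libraries were above the controls, and at 16 h the groups overlapped. The log2 difference was 0.17 (95% interval 0.01 to 0.32, limma adjusted p = 0.064) at 0 h and −0.09 (−0.25 to 0.07, limma adjusted p = 0.33) at 16 h. At 0 h it passed without replicate B of the control cells at 0 h (log2 difference 0.24, limma adjusted p = 0.037), with thinned reads (0.20, limma adjusted p = 0.042) and, just under the threshold, without either control library of 16 h. It was 0.01 with the length trend removed (limma adjusted p = 0.89) and 0.10 without replicate A of the control cells at 0 h (limma adjusted p = 0.36), and DESeq2 did not call it (adjusted p = 0.17). Per kilobase the ratio of KMT2A to KMT2B lay between 0.849 and 0.89 in the control libraries and between 0.62 and 0.817 in the mutp53-depleted libraries, with no overlap and no test.

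KDM6A (chromosome X, 44732421 to 44971857 on hg19, plus strand, NM_001291415), the H3K27 demethylase of the KMT2C and KMT2D complexes, was the gene with the fewest reads. Before TNF-α it had 323 and 361 normalized reads in control cells and 476 and 411 after depletion. Following TNF-α there were 372 and 353 in control cells and 456 and 468 after depletion. Every mutp53-depleted library was above every control library, although replicates A and B at 0 h lay further apart after depletion than in control cells. KDM6A rose 1.30-fold at 0 h (95% interval 1.12 to 1.50, limma adjusted p = 0.0045) and 1.27-fold at 16 h (1.10 to 1.48, limma adjusted p = 0.0074). The call at 0 h was lost with the median of its neighbours subtracted (log2 difference 0.23, limma adjusted p = 0.086), without replicate A of the control cells at 0 h (0.29, limma adjusted p = 0.056) or replicate A of the mutp53-depleted cells at 0 h (0.27, limma adjusted p = 0.091). At 16 h it was lost without replicate B of the mutp53-depleted cells (0.33, limma adjusted p = 0.05 after rounding, above the threshold).

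**Figure D3:**
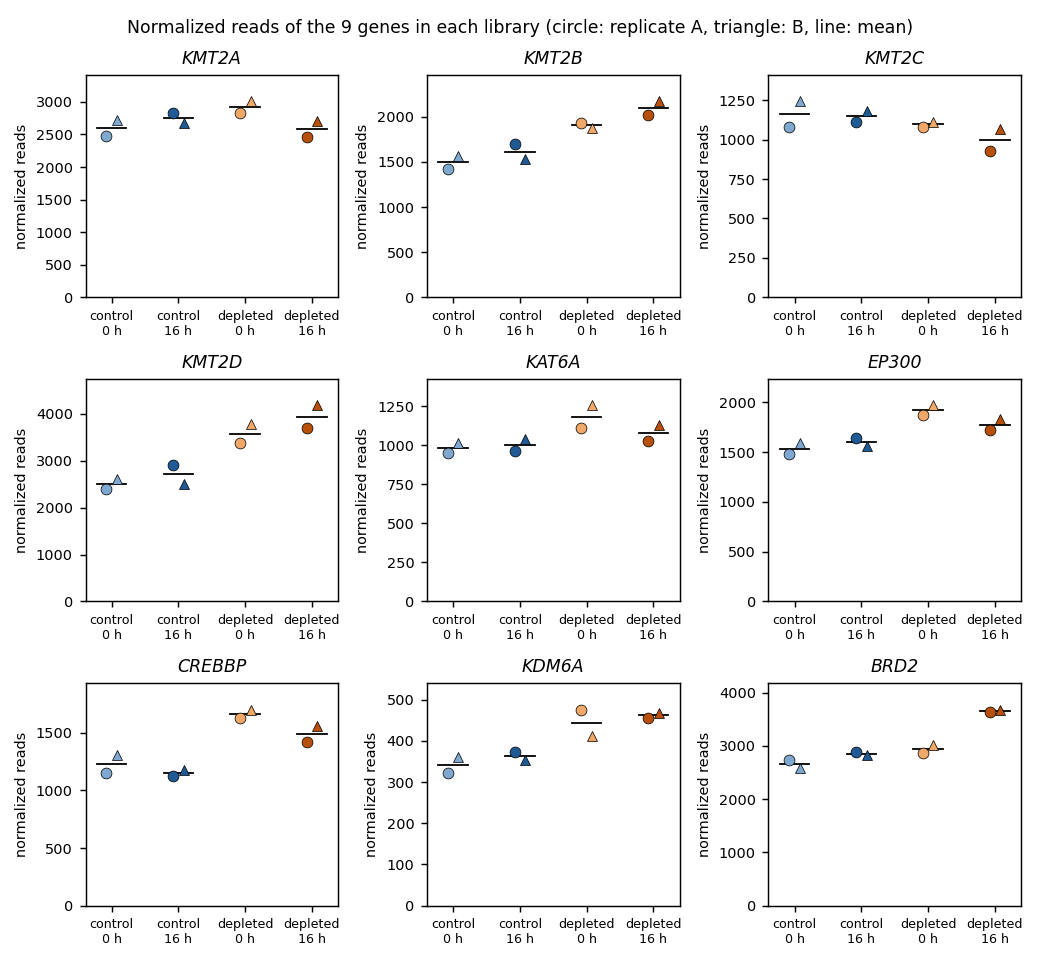
Normalized reads of each gene in the 8 libraries on axes from 0, with circles for replicate A, triangles for replicate B and a line at the mean of each group. For KMT2D, KMT2B, CREBBP, EP300 and KDM6A all mutp53-depleted libraries lie above all control libraries, whereas BRD2 stands apart in mutp53-depleted cells at 16 h, at 3634 and 3679.

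CREBBP (chromosome 16, 3775056 to 3930121 on hg19, minus strand, NM_004380) and its paralog EP300 encode the H3K27 acetyltransferases CBP and p300. The control line had 1154 and 1309 normalized reads of CREBBP at 0 h, and the depleted line 1629.7 and 1702. At 16 h these were 1127 and 1174 in the control line and 1421 and 1559 in the depleted line. Again the lines did not overlap at either time. In the depleted line CREBBP was higher 1.36-fold at 0 h (95% interval 1.21 to 1.52, limma adjusted p = 0.00013) and 1.29-fold at 16 h (1.15 to 1.45, limma adjusted p = 0.00062). The neighbours of CREBBP on chromosome 16, in contrast to those of KMT2D and KMT2B, had medians near 0. On the log2 scale these were −0.10 at 0 h and −0.09 at 16 h. CREBBP remained called with medians taken per library subtracted and when any 1 library was left out.

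EP300 (chromosome 22, 41488614 to 41576081 on hg19, plus strand, NM_001429) had 1477 and 1589 normalized reads in untreated control cells and 1874 and 1968 in untreated mutp53-depleted cells. In cells exposed to TNF-α the control line had 1642 and 1564 and the depleted line 1722 and 1828. The lines did not overlap at either time, with a smaller gap at 16 h. EP300 rose 1.25-fold at 0 h (95% interval 1.13 to 1.39, limma adjusted p = 0.00085), while the fold at 16 h was 1.11 (0.998 to 1.23, limma adjusted p = 0.095). With the length trend removed the log2 difference at 0 h went from 0.33 to 0.20 (limma adjusted p = 0.021), and with the median of its neighbours subtracted EP300 passed at 16 h (0.22, limma adjusted p = 0.028). The difference between both times was −0.18 on the log2 scale and did not pass (limma unadjusted p = 0.093, adjusted p = 0.48). Per kilobase, CREBBP was 0.589 to 0.707 of EP300 in the control libraries and 0.709 to 0.747 in the mutp53-depleted libraries, again without a test.

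KAT6A (chromosome 8, NM_006766), the MOZ acetyltransferase, which modifies lysines of histone H3, had 954 and 1018 normalized reads at 0 h in the control line and 1114 and 1256 in the depleted line. The 16 h values were 967 and 1043 in the control line and 1025 and 1132 in the depleted line. The groups were separate at 0 h and overlapped at 16 h. KAT6A rose 1.20-fold at 0 h (95% interval 1.06 to 1.35, limma adjusted p = 0.012), and at 16 h its fold was 1.07 (0.951 to 1.21, limma adjusted p = 0.32). The call at 0 h was lost without replicate A of the control cells (log2 difference 0.22, limma adjusted p = 0.094), without replicate B of the mutp53-depleted cells (0.18, limma adjusted p = 0.19) and with the trend over gene length removed (0.13, limma adjusted p = 0.16).

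**Figure D4:**
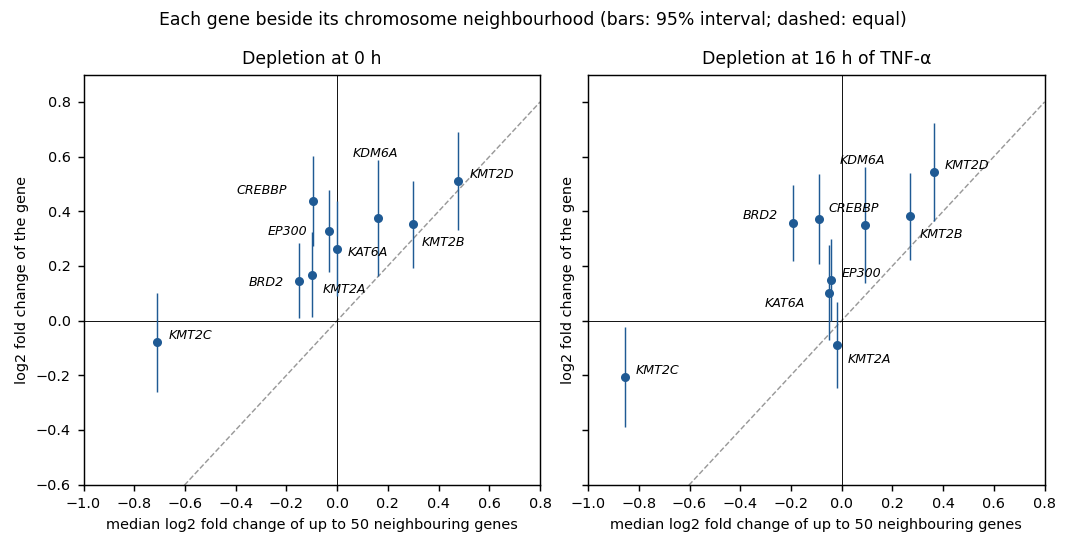
Log2 fold change of each gene on mutp53 depletion (vertical axis, bars are 95% intervals) against the median log2 fold change of its 50 nearest tested genes (horizontal axis) at 0 h and at 16 h; the dashed line marks equal values. KMT2D and KMT2B lie near the line, at neighbour medians of 0.48 and 0.30 at 0 h, while KMT2C stands to the left at −0.71 and −0.86.

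BRD2 (chromosome 6, 32936437 to 32949282 on hg19, plus strand, NM_005104) lies in the major histocompatibility complex, a region with alternate versions in the reference, and was listed with 7 copies. How reads on the copies were combined is not given in the sources used here. In control cells BRD2 went from 2727 and 2592 normalized reads at 0 h to 2885 and 2824 at 16 h. In mutp53-depleted cells it went from 2875 and 3009.7 to 3634 and 3679. The mutp53-depleted libraries at 16 h were above the other 6. Between lines BRD2 differed 1.11-fold at 0 h (95% interval 1.005 to 1.22, limma adjusted p = 0.072) and rose 1.28-fold at 16 h (1.16 to 1.41, limma adjusted p = 0.00017). Its neighbours on chromosome 6 had medians of −0.15 and −0.19 on the log2 scale. With medians taken per library subtracted, BRD2 was called at 0 h as well (log2 difference 0.29, limma adjusted p = 0.0041). It was also called at 0 h without either control library of 16 h (0.15, limma adjusted p = 0.048).

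The second question of the design was whether 16 h of TNF-α changed these genes. In control cells none of the 9 was called with limma, in a comparison that called 26.3% of all genes, and none passed an unadjusted p under 0.05, as 36.6% of all genes did. The counts were also 0 with DESeq2 and both edgeR tests, at the adjusted threshold. The log2 fold changes lay between −0.10 for CREBBP and 0.11 for KMT2B, and the widest 95% interval, for KDM6A, ran from −0.13 to 0.30. Changes of 2-fold lay outside all 9 intervals. The stimulus itself was strong in these cells. NFKBIA, an inhibitor and target of NF-κB, went from 131 and 114 to 1808 and 1568 normalized reads, a 13.7-fold rise. In mutp53-depleted cells NFKBIA went from 226 and 195 to 1097 and 1053, a 5.10-fold rise. BRD2 was the gene whose control libraries at 0 h and 16 h did not overlap, at a log2 difference of 0.10 (limma adjusted p = 0.28), and 24.8% of all genes were higher in this sense.

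In mutp53-depleted cells BRD2 alone was called after TNF-α, in a comparison that called 26.7% of all genes and 9.8% as higher. It rose 1.24-fold (95% interval 1.13 to 1.37, limma adjusted p = 0.0015), and the call held without any 1 library and in every alternative tried (limma, edgeR and DESeq2 adjusted p between 4.4e-06 and 0.039). At an unadjusted p under 0.05 KMT2A was the other gene to pass, and 37.5% of all genes did. KMT2A, KMT2C, EP300 and CREBBP were lower in both libraries at 16 h than in both at 0 h, as were 39.3% of all genes, but with log2 differences of −0.18, −0.14, −0.11 and −0.16 none of them passed (limma adjusted p between 0.086 and 0.26). KMT2B and KMT2D had values of 0.14 each. With a trend over gene length removed, both passed (0.28 and 0.35, limma adjusted p = 0.0087 and 0.0035) and the count became 3. In the same setting KMT2A, KMT2C and EP300 turned to 0.02, 0.06 and 0.03 and were not called (limma adjusted p between 0.64 and 0.87). CREBBP stayed negative in every alternative.

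Whether the difference between lines changed from 0 h to 16 h was tested as an interaction, which is the same as a difference in the response to TNF-α between lines. None of the 9 passed with limma, DESeq2 or the edgeR quasi-likelihood test, and 2.86% of all genes did with limma. At an unadjusted p under 0.05 there were 2, KMT2A and BRD2, against 13.5% of all genes. KMT2A had an interaction of −0.26 on the log2 scale (95% interval −0.48 to −0.04, limma adjusted p = 0.25) and BRD2 of 0.21 (0.02 to 0.41, limma adjusted p = 0.31). The rise of BRD2 with TNF-α in mutp53-depleted cells was therefore not shown to differ from its change in control cells.

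The same enzymes act in complexes and against other enzymes, so 86 further chromatin genes were listed by role, of which 83 were tested. At 0 h 42 of the 83 were called higher and 12 lower after depletion, with a median log2 fold change of 0.22, and at 16 h 37 were higher and 13 lower, with a median of 0.22. Over all genes tested 27.3% were higher and 25.2% lower at 0 h, and 24.9% and 26.5% at 16 h, which are also the shares to set beside the counts by role. After TNF-α 6 of the 83 were higher and 15 lower in the control line, where 11.1% of all genes were higher and 15.2% lower. In the depleted line 7 were higher and 19 lower, beside 9.8% and 16.9% of all genes.

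Of the 4 core subunits shared by all KMT2 complexes, RBBP5 (0.25, limma adjusted p = 0.041) and WDR5 (0.19, limma adjusted p = 0.037) were higher on the log2 scale at 16 h, and the other two were not called at either time. Of 10 genes listed with particular KMT2 or SETD1 complexes, 3 were higher at 0 h and 4 at 16 h, with none lower. The log2 fold changes at 0 h and 16 h were 1.20 and 0.92 for HCFC2. BPTF, in this list but not a subunit of those complexes, rose by 0.67 and 0.74. WDR82, a subunit of the SETD1 complexes, rose by 0.75 and 0.64. Of 6 other genes listed with the H3K4 methyltransferases and tested, 2 were higher and 2 lower at 0 h, and 2 were higher and 3 lower at 16 h. SETD7 rose by 0.67 and 0.56 and SETD1B by 0.53 and 0.62, and SMYD3 fell by 1.05 and 0.79. SMYD2 fell by 0.34 and 0.35, and KMT2E, listed by family and not by activity, fell by 0.38 at 16 h. The value of SETD1B at 0 h was the same as the median of its neighbours, 0.53.

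Of 5 enzymes that remove H3K4 methylation, 4 were called higher at each time. KDM5A, which demethylates H3K4me3, rose by 1.13 at 0 h and 0.98 at 16 h on the log2 scale, in a neighbourhood on chromosome 12 with medians of 0.88 and 0.82. KDM5B rose by 1.07 and 0.82 with neighbours at −0.12 and −0.24. KDM5C rose by 0.40 and 0.42. KDM1B had −0.22 at 0 h (limma adjusted p = 0.086) and was lower at 16 h (−0.55, limma adjusted p = 0.00017).

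Among 11 genes of Polycomb repressive complex 2 (PRC2) and its opposing demethylases, 7 were higher and 2 lower at 0 h, and 5 were higher and 2 lower at 16 h. The accessory subunits AEBP2 (1.62 and 1.53) and JARID2 (1.07 and 0.87) rose at both times, and AEBP2 had neighbours with medians of 1.22 and 1.14. EZH2, the catalytic subunit that places the methyl groups KDM6A removes, was lower at 0 h (−0.75, limma adjusted p = 2.9e-07), with neighbours at −0.63, and at 16 h (−0.43, limma adjusted p = 0.00017). KDM6B, the paralog of KDM6A, is a known target of inflammatory signals. It rose after TNF-α in the control line (1.07, limma adjusted p = 5.3e-08) and in the depleted line (0.80, limma adjusted p = 2.9e-06), where KDM6A had 0.09 and 0.06 and was not called.

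Of 10 other acetyltransferases 6 were higher and 1 lower at 0 h, and 5 were higher and 1 lower at 16 h. NCOA3 rose by 0.88 and 0.47 at 0 h and 16 h, KAT7 by 0.69 and 0.74, and KAT2B, the PCAF acetyltransferase, by 0.71 and 0.98. After TNF-α KAT2B fell by 1.53 in the control line (limma adjusted p = 0.00016) and by 1.25 in the depleted line (limma adjusted p = 0.0011), whereas EP300 and CREBBP were not called. Of 6 subunits of the KAT6 complexes, ING4 was higher at 0 h and ING4 and ING5 at 16 h. The 16 deacetylases and their scaffolds went both ways, with 7 higher and 6 lower at 0 h and 5 and 5 at 16 h, and HDAC10 fell by 1.19 and 0.97.

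Of the 13 genes of P-TEFb and the partners of BET readers, 11 were higher and 1 lower at 0 h, and 7 were higher and 1 lower at 16 h. AFF1, a scaffold of the super elongation complex, rose by 0.96 and 0.71, the Mediator subunit MED1 by 0.88 and 0.77 and HEXIM1, an inhibitor of P-TEFb, by 0.70 and 0.60. CDK8, the Mediator kinase, fell by 0.63 and 0.73. After TNF-α 2 of the 13 were called higher and 3 lower in the control line, beside 11.1% and 15.2% of all genes. In the depleted line 1 was higher and 3 were lower, beside 9.8% and 16.9%. The elongation factor ELL2 rose by 0.57 in the control line and by 0.53 in the depleted line. CDK8 (−0.40 and −0.50), HEXIM1 (−0.28 and −0.37) and AFF1 (−0.25 and −0.49) were called lower in both lines.

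**Figure D5:**
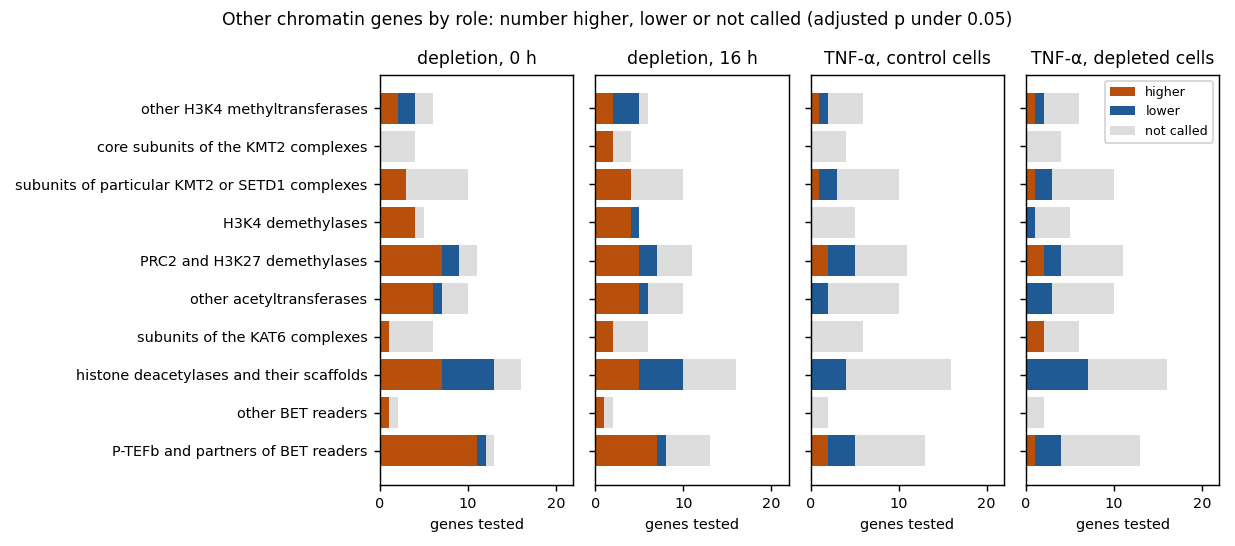
Number of genes called higher (orange), called lower (blue) or not called (grey) in each role of the 83 further chromatin genes tested, for mutp53 depletion at 0 h and 16 h and TNF-α in either line. Depletion at 0 h gave 42 higher and 12 lower, and TNF-α in control cells gave 6 higher and 15 lower.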

How the data were processed

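The signal values deposited by the authors are reads counted on RefSeq exons with HOMER after mapping with STAR, times 1 factor per library. Reads were recovered as whole numbers for 100% of the values (tolerance 0.006 normalized reads). The header of the table names hg19, while the labels name hg38. The authors' own comparisons (log2 fold changes, p-values and adjusted p-values for 4 contrasts) were not used.

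The plan foresaw limma for scaled values. Log2(normalized reads + 1) of genes averaging at least 2.5 was fitted in limma 3.58.1 (R 4.3.3; lmFit, contrasts.fit, eBayes with trend) as 1 mean per group over the 8 libraries, and p-values were adjusted by Benjamini-Hochberg over the 14800 genes. All 9 genes were named and, in each role of the further lists, up to 3 genes with the largest called change in a contrast. Not every gene that this rule yields is printed, and the check of the targeted gene is not reported here. The genes, lists and tests were chosen with earlier results of these data known. Alternatives were other scalings, filters and pseudocounts, a replicate block, thinned reads, the length trend and the neighbour median removed, edgeR 4.0.16, DESeq2 1.42.0 and leaving out each library. Code was tested on simulated data. Plots used matplotlib 3.10.9. Promoter windows came from RefSeq (GRCh38.p14). ChIP-seq and GRO-seq were not analysed here.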

Additional observations from a re-analysis of the deposited data

Results flagged for a closer look

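For 3 of the further chromatin genes named above, every library moved one way in one comparison and the opposite way in its counterpart. The test of the difference itself, the limma interaction, did not pass. These 3 are not the full count on the lists, where SIN3A and CXXC1 also moved in opposite directions. ING5, a subunit of the KAT6 complexes, had an interaction of 0.49 on the log2 scale (limma adjusted p = 0.082): after mutp53 depletion it was at −0.19 at 0 h and 0.30 at 16 h. NCOA3, a nuclear receptor coactivator, had −0.41 (limma adjusted p = 0.12), with a response to TNF-α of 0.24 in the control line and −0.17 in the depleted line. KDM1B, an H3K4 demethylase, had −0.34 (limma adjusted p = 0.29), from 0.18 in the control line to −0.16 in the depleted line. None of the 9 genes described above showed this pattern, and groups of 2 libraries were not searched for single outlying libraries.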

How the results depend on the processing

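With a trend over gene length removed, the number of the 9 genes called after TNF-α in mutp53-depleted cells was 3 in place of 1. In that comparison the values of KMT2A, KMT2C, KAT6A and EP300 turned from negative to slightly positive and were not called. Leaving out 1 library at a time, the number called after depletion lay between 4 (without replicate A of the control cells at 0 h) and 8 at 0 h and between 5 and 6 at 16 h. The sign of 3 values turned when the median of the neighbouring genes was subtracted: KMT2C became 0.66 at 0 h and 0.56 at 16 h, and SETD1B became −0.034 at 0 h. With a replicate block the counts after depletion were 7 at 0 h and 6 at 16 h, with KMT2A (limma adjusted p = 0.043) and KMT2C (limma adjusted p = 0.021) added. Over all genes tested, the deviations of equal letters had correlations between −0.02 and 0.07, which does not settle pairing for single genes. For KMT2C, CREBBP and KAT6A replicate B was above replicate A in every group, and for the rest of the 9 genes it was not. With 2 libraries a group, p-values rest on a spread shared over all groups, and a lone library left by an omission is assumed to vary like the rest.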
